A study of Rattus norvegicus with 24 samples.

Results

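Interferon-stimulated genes were followed in left ventricular tissue away from the infarct, from 12 female rats of the Sprague-Dawley strain aged 3 months. The genes were 49 symbols from a list of known interferon targets, chosen with earlier results of these data known. Of these, 42 had a named probe on the Illumina RatRef-12 BeadChip, out of 13337 genes named on the array. Where a gene had several probes, which was the case for 1 member (Stat2), the probe with the highest mean was taken. Rsad2, Isg20, Samhd1, Parp9, Parp14, Gbp1 and Xaf1 were not matched to a probe and are not analysed here. The groups were MI+T4 (infarction by tying off the left anterior descending artery, and a subcutaneous pellet of 3.3 mg thyroxine, T4, released over 60 days), MI (the same infarction with a placebo pellet) and Sham (a loosely tied suture with a placebo pellet). Tissue was taken 4 weeks after surgery, with 4 rats per group and 2 arrays per rat. No group received T4 without an infarct, and rats entered the MI and MI+T4 groups only within a range of infarct size. MI and MI+T4 rats both carry the numbers 5 to 8 but are different animals.

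Interferons are secreted proteins that cells release on sensing viral or misplaced nucleic acid. They bind receptors on the same or neighboring cells, Jak kinases then phosphorylate Stat proteins, and Stat2 joins Irf9 to switch on genes that carry an interferon-stimulated response element in their promoters. The products include sensors of foreign RNA, enzymes that block viral replication, GTPases and brakes on the signal itself. In the heart such genes are known to be expressed by cardiomyocytes, endothelial cells, fibroblasts and resident leukocytes.

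Promoter windows from RefSeq (GRCr8, 250 bases before to 50 bases after the gene start) were available for 39 of the 49 symbols. The core of the response element, searched as GAAA, any 2 bases and GAAA on both strands with overlapping matches allowed, occurred in 25 of these 39 genes (64.1%), against 4.12% of all 27457 genes with a window. The core of the gamma-activated site, TTC, any 3 bases and GAA, which reads the same on both strands, occurred in 12 of 39 (30.8%), against 9.39% of all genes. The list was chosen for its response to interferon, so these shares describe it and were not tested. Stretches of 60 bases around the element are given for 10 members, those with the element whose difference is detailed below by the rule on smallest p. They read 5′ to 3′ on the gene's strand, end before the gene start, and have each match to the element in capitals (TTTC, any 2 bases and TTTC where it lies on the opposite strand).
Irf7 (chr1:205800058-205800117, minus strand): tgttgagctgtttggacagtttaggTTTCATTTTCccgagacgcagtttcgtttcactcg
Oas1a (chr12:41330400-41330459, plus strand): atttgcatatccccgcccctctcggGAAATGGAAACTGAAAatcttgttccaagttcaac
Oas1b (chr12:41395877-41395936, minus strand): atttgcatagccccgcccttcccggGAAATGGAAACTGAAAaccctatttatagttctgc
Oasl2 (chr12:47383302-47383361, minus strand): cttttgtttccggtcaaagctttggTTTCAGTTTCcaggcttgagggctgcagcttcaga
Eif2ak2 (chr6:21941094-21941153, plus strand): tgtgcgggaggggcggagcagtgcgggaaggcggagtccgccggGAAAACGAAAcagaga
Ifih1 (chr3:67683993-67684052, minus strand): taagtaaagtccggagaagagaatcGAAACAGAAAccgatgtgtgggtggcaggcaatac
Ifi27 (chr6:128355203-128355262, plus strand): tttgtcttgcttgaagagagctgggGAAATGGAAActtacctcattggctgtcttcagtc
Ifi44 (chr2:243303841-243303900, minus strand): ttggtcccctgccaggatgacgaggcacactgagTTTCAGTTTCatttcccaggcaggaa
Sp110 (chr9:93670683-93670742, minus strand): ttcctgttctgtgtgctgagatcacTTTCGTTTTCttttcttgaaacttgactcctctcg
Ifitm3 (chr1:205541768-205541827, minus strand): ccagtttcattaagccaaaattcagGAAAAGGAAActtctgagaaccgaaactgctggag
In Oas1a and Oas1b 2 overlapping matches make up the capitals. A match is a description of the letters and not a binding site shown by experiment.

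Levels are normalized log2 intensities, averaged over the 2 arrays of a rat, and errors are SD over 4 rats unless stated. They do not compare one gene with another, since each probe binds differently. Over all 24 arrays the values ran from 6.88 to 16.47, and the array medians lay between 7.81 and 7.82. The highest rat mean exceeded the median of that quantity over all probes (7.93) for 36 members, and stayed at or below it for Ifit1, Oas2, Oas1b, Dtx3l, Irf8 and Isg15, where a change is hard to see. The 7 ventricular cardiomyocyte markers averaged between 14.47 and 14.55 in MI+T4 rats, between 14.30 and 14.47 in MI rats and between 14.35 and 14.54 in Sham rats. The 2 atrial markers (Myl7 and Nppa) ranged widely, from 12.67 to 16.11 in MI+T4 rats, from 12.97 to 15.25 in MI rats and from 10.85 to 14.20 in Sham rats. The authors reported Nppa as higher in this tissue after infarction, so this average does not mark atrial cells alone. Within Sham, without an infarct, it was 14.10 and 14.20 in rats 1 and 2, against 10.85 and 10.90 in rats 3 and 4. Whether the samples held unequal amounts of atrial tissue was not tested. Tissue was measured as a whole, so a change in the number of cells expressing a gene and a change in RNA per cell cannot be told apart.

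Across MI+T4 against MI, the comparison that asks what thyroid hormone did after infarction, 36 of 42 members had a difference above 0 and 6 below it, and the median difference was 0.153 on the log2 scale. None passed an adjusted p of 0.05 in the limma fit (Benjamini-Hochberg over 22523 probes), and neither did any other probe (0.0% called). The authors used a moderated F-statistic and only genes detected on the arrays, unlike this fit. They listed Oas1a, Oasl2, Irf7, Irf9 and Mx1 among the genes altered by T4 after infarction. At an unadjusted p under 0.05, 21 members were higher and 1 (Irf5) was lower, against 3.74% of all probes higher and 3.68% lower. All 4 MI+T4 rats lay above all 4 MI rats in 3 members (Dhx58, Ifi27l2b and Ifi35, 7.14%), against 1.63% of all probes. A nested F test over the 3 groups marked 9 members as higher in MI+T4 (Dhx58, Ifi27l2b, Irf7, Irf9, Mx1, Oas1a, Oasl, Oasl2 and Sp110), against 0.226% of all probes. Markers of other cell types had differences in this comparison too. Of 7 ventricular cardiomyocyte markers 6 were above 0, with a median of 0.13 and 3 at an unadjusted p under 0.05. Of 6 fibroblast markers 5 were below 0, with a median of -0.271 and 2 at that p, and all 5 pan-leukocyte markers were below 0, with a median of -0.232 and 1 at that p. None passed after adjustment, and their part in the members' differences was not tested. The differences of all members are shown for the 3 comparisons in the plot of differences.

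**Figure D1:**
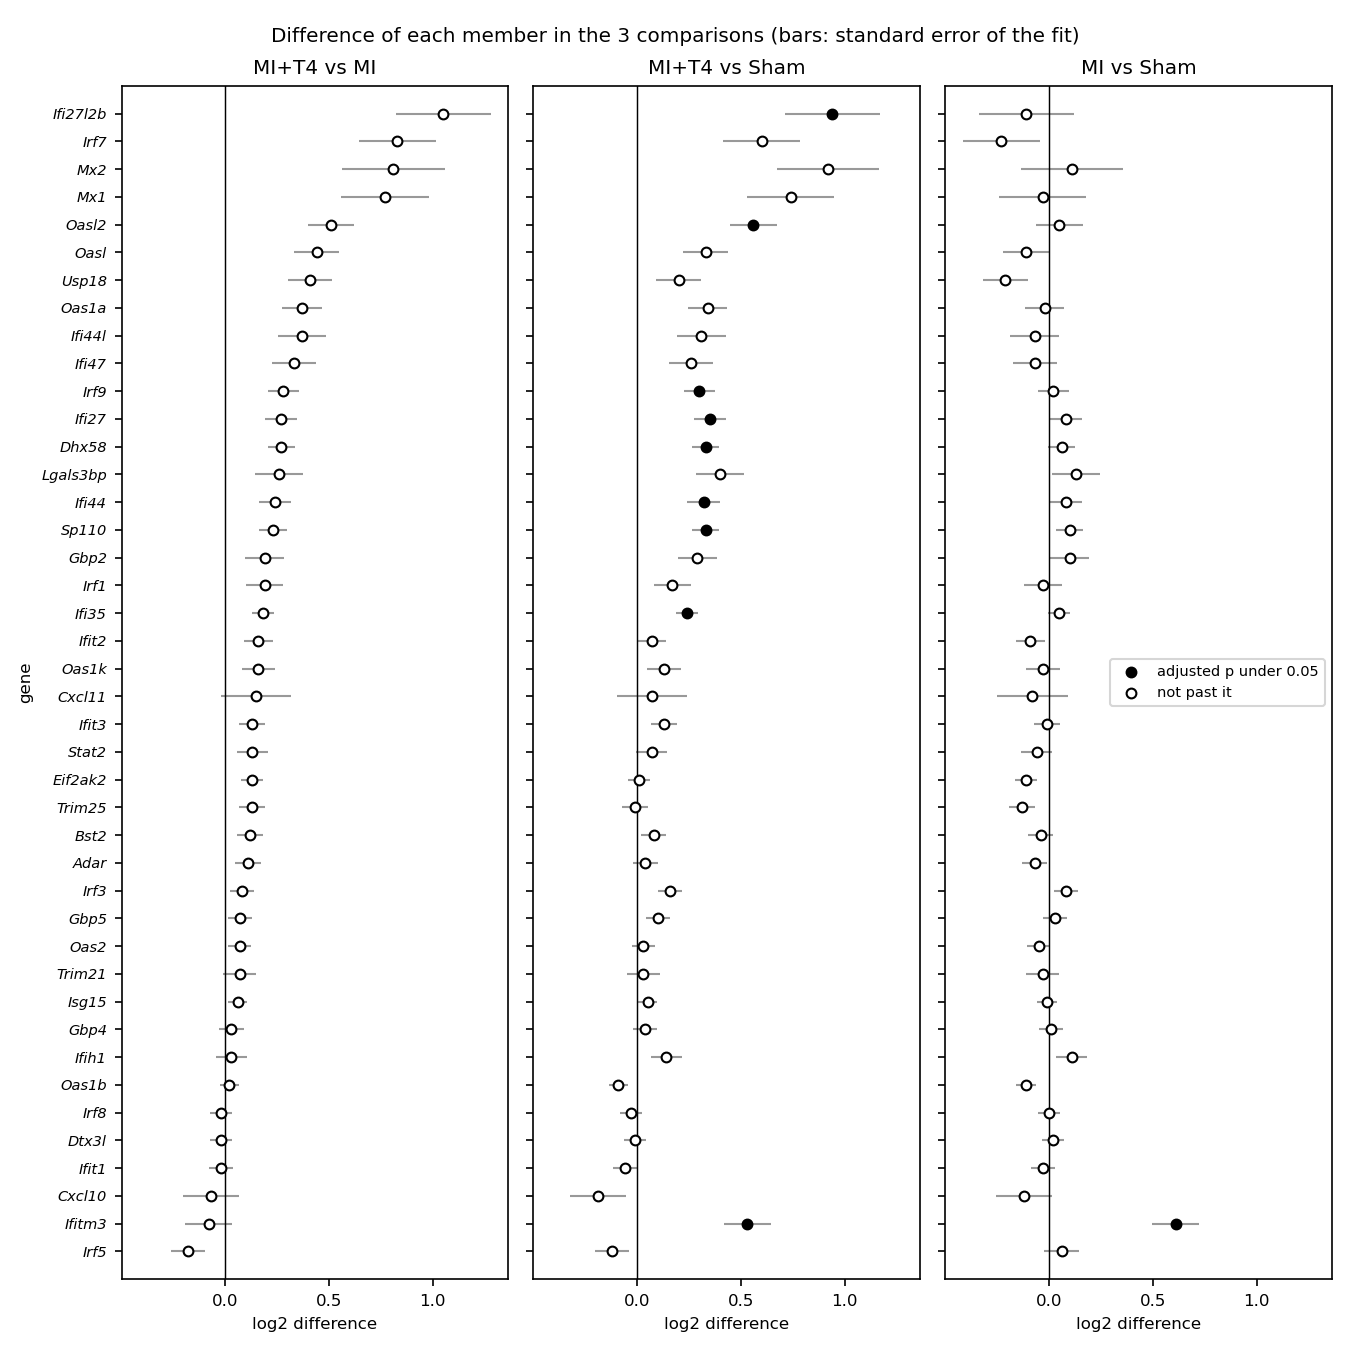
Log2 difference of each of the 42 members (rows) in MI+T4 against MI, MI+T4 against Sham and MI against Sham, with the standard error of the limma fit as bars. Filled points mark an adjusted p under 0.05, which 0, 9 and 1 members reached in that order of panels, and 36 of 42 points lie above 0 in the first panel.

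Among the transcription factors, Irf7, which amplifies interferon production and its targets, had the largest difference between MI+T4 and MI. Irf7 stood at 10.11, 11.25, 10.66 and 10.44 in MI+T4 rats 5 to 8, against 9.07, 9.97, 10.31 and 9.79 in MI rats 5 to 8 and 9.90, 9.61, 10.35 and 10.20 in Sham rats 1 to 4. MI+T4 rat 6 was highest and MI rat 5 lowest of the 12, and MI+T4 rat 5 lay below MI rat 7, so that these groups overlapped. The difference was 0.83 ± 0.185 (SE) in MI+T4 against MI, a 1.78-fold higher mean with an adjusted p of 0.136, and 0.60 in MI+T4 against Sham (adjusted p = 0.127), where it was 0.39 without MI+T4 rat 6. Irf9, the DNA-binding partner of Stat2, had levels of 9.46, 9.86, 9.64 and 9.43 in MI+T4 rats, against 9.03, 9.37, 9.48 and 9.38 in MI rats and 9.33, 9.18, 9.36 and 9.31 in Sham rats. All 4 MI+T4 rats were above all 4 Sham rats but not above all MI rats. Irf9 rose by 0.30 ± 0.0756 (SE) in MI+T4 against Sham (adjusted p = 0.0418), and its difference against MI was 0.28 (adjusted p = 0.206), and 0.19 without MI rat 5. Irf1, Irf3, Irf5, Irf8 and Stat2 passed in no comparison. For Stat2, the partner of Irf9, the difference between MI+T4 and MI was 0.13.

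The antiviral effectors numbered 15. In MI+T4 against MI, 8 of them had an unadjusted p under 0.05, all with a higher mean in MI+T4 (3.74% of all probes), and 0 passed after adjustment. The Oas family makes or resembles the enzymes that signal double-stranded RNA through RNase L. Oasl2 levels were 9.61, 10.21, 9.90 and 9.80 in MI+T4 rats, against 8.97, 9.41, 9.68 and 9.43 in MI rats and 9.44, 8.99, 9.33 and 9.51 in Sham rats. Oas1a levels were 8.45, 8.85, 8.66 and 8.68 in MI+T4 rats, against 7.88, 8.37, 8.58 and 8.34 in MI rats and 8.41, 8.12, 8.45 and 8.29 in Sham rats. For Oasl they were 8.82, 9.25, 8.87 and 8.86 in MI+T4 rats, against 8.04, 8.61, 8.83 and 8.58 in MI rats and 8.62, 8.46, 8.75 and 8.68 in Sham rats. In each of these 3 genes MI+T4 rat 6 was highest and MI rat 5 lowest of the 12, and the highest MI rat, rat 7, reached above the lowest MI+T4 rat. The differences between MI+T4 and MI were 0.51 ± 0.112 for Oasl2, 0.37 ± 0.0944 for Oas1a and 0.44 ± 0.11 for Oasl (SE), with adjusted p of 0.136, 0.193 and 0.18. Without MI rat 5 those of Oas1a and Oasl were 0.23 and 0.28. Against Sham, Oasl2 rose by 0.56 (1.47-fold, adjusted p = 0.00865) with no overlap of the rats.

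Oas1b, another synthetase gene, has the same capitals in its promoter stretch as Oas1a. Its probe was dim, at 7.59, 7.55, 7.46 and 7.59 in MI+T4 rats, against 7.42, 7.57, 7.55 and 7.57 in MI rats and 7.68, 7.67, 7.59 and 7.61 in Sham rats. All MI rats lay below all Sham rats, by 0.11 ± 0.0472 (SE) on average with an adjusted p of 0.238, and the probe passed in no comparison. Probe sequences were not used here, so that how far the probes of Oas1a, Oas1b and Oas1k, of Mx1 and Mx2, or of Ifi27 and Ifi27l2b tell near-identical copies apart is uncertain.

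Mx1 and Mx2, GTPases that trap viral particles, were outside the rule that chose which genes to detail and are given after their values were seen. Mx1 had 9.74, 11.16, 10.34 and 10.13 in MI+T4 rats, against 8.93, 9.81, 9.98 and 9.57 in MI rats and 9.82, 8.98, 10.07 and 9.53 in Sham rats. Mx2 had 11.08, 11.97, 10.80 and 10.65 in MI+T4 rats, against 9.70, 10.80, 10.69 and 10.07 in MI rats and 10.67, 9.83, 10.92 and 9.42 in Sham rats. Both were highest in MI+T4 rat 6 and spread over more than 1 log2 unit within Sham. Their differences between MI+T4 and MI were 0.77 ± 0.21 and 0.81 ± 0.247 (SE), with adjusted p of 0.22 and 0.31, and 0.50 and 0.53 without MI+T4 rat 6. Eif2ak2, the kinase PKR that halts translation on binding double-stranded RNA, had 8.00, 8.24, 8.17 and 8.19 in MI+T4 rats, against 8.01, 7.97, 8.11 and 8.01 in MI rats and 8.12, 8.04, 8.13 and 8.26 in Sham rats. Its differences were 0.13 in MI+T4 against MI and -0.11 in MI against Sham, with adjusted p of 0.587 and 0.339, and the groups overlapped. The Ifit genes, whose products bind foreign RNA ends, and Adar, Bst2, Oas1k and Oas2 differed between MI+T4 and MI by -0.02 (Ifit1) to 0.16 (Ifit2 and Oas1k), and none passed.

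**Figure D2:**
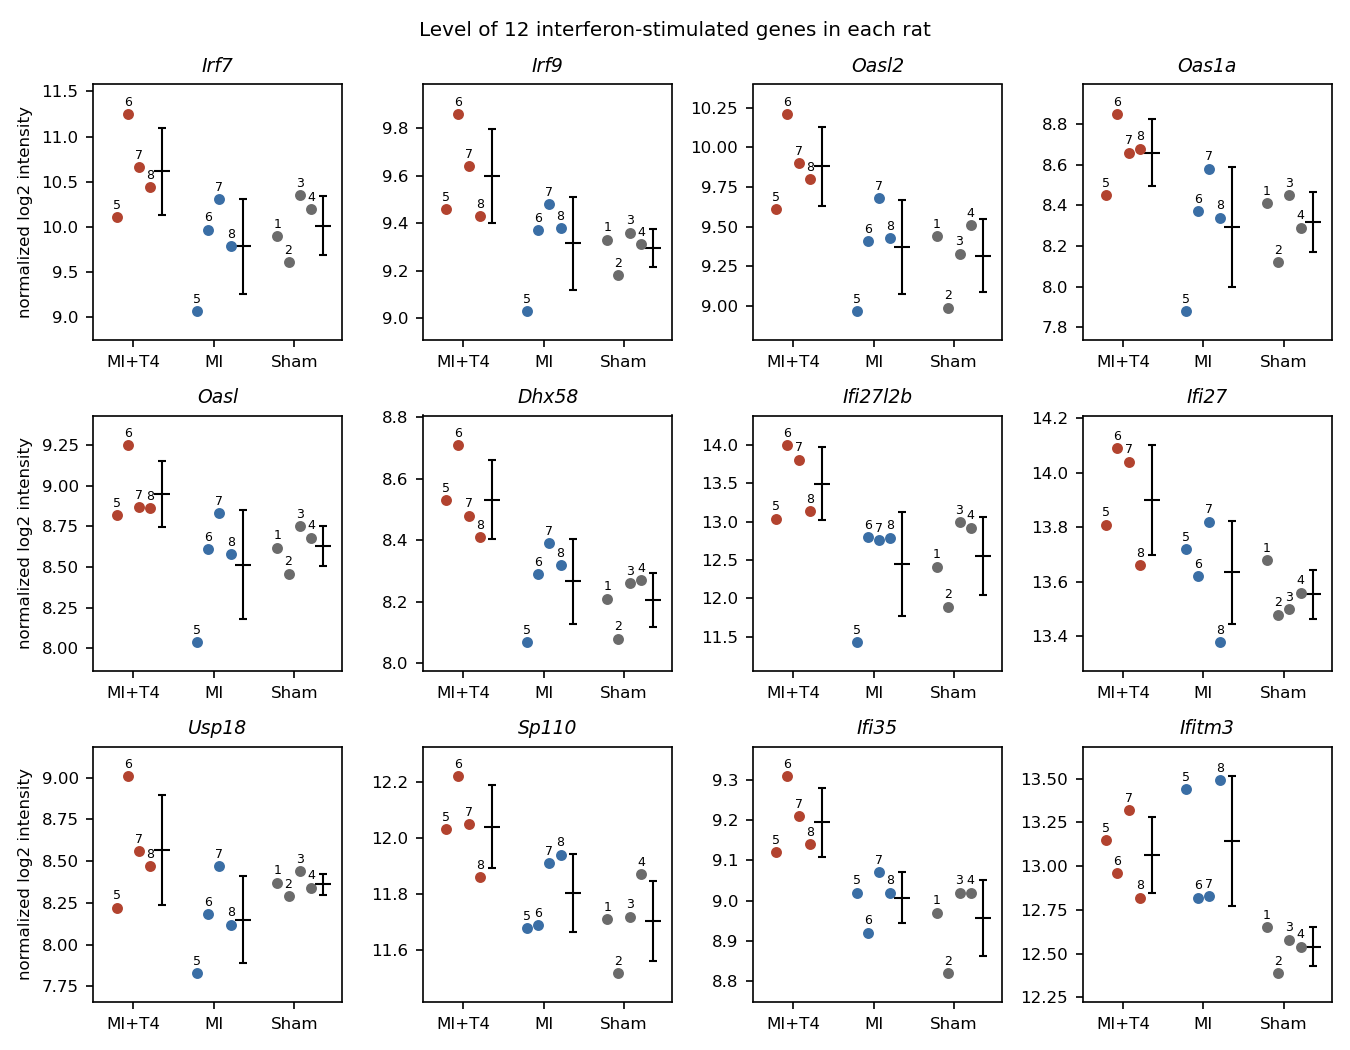
Normalized log2 intensity of 12 members in each rat, with MI+T4, MI and Sham from left to right, the rat number above each point and the mean ± SD of the group as a black bar (n = 4). In the Irf7 panel MI+T4 rat 6 lies at 11.25 and MI rat 5 at 9.07, and in the Ifitm3 panel all MI+T4 and MI rats lie above all Sham rats.

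Ifitm3, a membrane protein that blocks viral entry, was the only member to pass in MI against Sham. Its levels were 13.15, 12.96, 13.32 and 12.82 in MI+T4 rats, against 13.44, 12.82, 12.83 and 13.49 in MI rats and 12.65, 12.39, 12.58 and 12.54 in Sham rats. Every infarcted rat, with or without T4, was above every Sham rat, and MI rats 5 and 8 were the highest of the 12. Ifitm3 rose by 0.61 ± 0.113 (SE) in MI against Sham (1.52-fold, adjusted p = 0.00298) and by 0.53 in MI+T4 against Sham (1.44-fold, adjusted p = 0.0141). Between MI+T4 and MI the difference was -0.08 (adjusted p = 0.964). The 6 fibroblast markers averaged 12.59, 12.45, 12.90 and 12.17 in MI+T4 rats, against 13.35, 12.56, 12.24 and 13.10 in MI rats and 12.22, 12.17, 12.45 and 12.47 in Sham rats, so that they too were highest in MI rats 5 and 8. Among them Pdgfra, a receptor that marks cardiac fibroblasts, passed in both comparisons with Sham (0.34 in MI+T4, adjusted p = 0.01, and 0.33 in MI, adjusted p = 0.0071). Their part in the Ifitm3 result was not tested.

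Of the cytosolic RNA sensors, Dhx58 (LGP2) had levels of 8.53, 8.71, 8.48 and 8.41 in MI+T4 rats, against 8.07, 8.29, 8.39 and 8.32 in MI rats and 8.21, 8.08, 8.26 and 8.27 in Sham rats. The MI+T4 rats lay above all rats of both other groups, although by only 0.02 at the closest point, between MI+T4 rat 8 and MI rat 7. The difference from MI was 0.27 ± 0.0653 (SE, adjusted p = 0.151), and against Sham Dhx58 rose by 0.33 (1.25-fold, adjusted p = 0.00857). Ifih1 (MDA5), the sensor of long double-stranded RNA, stood at 8.90, 9.22, 8.84 and 8.95 in MI+T4 rats, against 8.78, 8.99, 9.09 and 8.92 in MI rats and 8.96, 8.69, 8.77 and 8.90 in Sham rats. The groups overlapped, with differences of 0.03 in MI+T4 against MI and 0.11 in MI against Sham (adjusted p = 0.979 and 0.579).

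The Ifi27 family, small mitochondrial and nuclear-envelope proteins induced by type I interferon, held the member with the largest difference between MI+T4 and MI. Ifi27l2b levels were 13.04, 14.00, 13.81 and 13.14 in MI+T4 rats, against 11.43, 12.80, 12.76 and 12.79 in MI rats and 12.41, 11.89, 12.99 and 12.92 in Sham rats. The 4 MI+T4 rats were above the other 8, and MI rat 5 lay far below the other 3 MI rats. The difference between MI+T4 and MI was 1.05 ± 0.229 (SE, 2.07-fold) with a 95% interval of 0.60 to 1.5 and an adjusted p of 0.136. That interval was taken from the SE with a normal distribution and can be too narrow for 4 rats per group. With single rats left out the difference ran from 0.71 to 1.2. Against Sham Ifi27l2b rose by 0.94 (1.92-fold, adjusted p = 0.0326). Ifi27 levels were 13.81, 14.09, 14.04 and 13.66 in MI+T4 rats, against 13.72, 13.62, 13.82 and 13.38 in MI rats and 13.68, 13.48, 13.50 and 13.56 in Sham rats. MI+T4 rat 8 was below Sham rat 1, so the groups overlapped, and Ifi27 rose by 0.35 ± 0.0773 (SE) against Sham (adjusted p = 0.0196).

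Within the Isg15 system, Usp18, the protease that removes Isg15 from proteins and dampens the interferon receptor, had 8.22, 9.01, 8.56 and 8.47 in MI+T4 rats, against 7.83, 8.18, 8.47 and 8.12 in MI rats and 8.37, 8.29, 8.44 and 8.34 in Sham rats. Its MI rats included the 3 lowest values of the 12, and the difference from Sham was -0.21 ± 0.107 (SE, adjusted p = 0.38), and -0.10 without MI rat 5. In MI+T4 against MI it was 0.41 (adjusted p = 0.193), and 0.26 without MI+T4 rat 6. Trim25, a ubiquitin ligase of the RNA sensing pathway, had 8.01, 8.34, 8.25 and 8.15 in MI+T4 rats, against 7.93, 8.06, 8.18 and 8.08 in MI rats and 8.19, 8.10, 8.33 and 8.16 in Sham rats. The groups overlapped, and the difference between MI and Sham was -0.13 (adjusted p = 0.312). Isg15 itself was dim, with differences of 0.06 or less in size in all 3 comparisons.

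The 4 guanylate-binding proteins and immunity GTPases (Gbp2, Gbp4, Gbp5 and Ifi47), which are induced chiefly by interferon gamma, had differences from 0.03 to 0.33 in MI+T4 against MI, and 0 of 4 passed in any comparison. The chemokines Cxcl10 and Cxcl11, which draw activated T cells, had differences of -0.07 and 0.15. Of the other 5 interferon-induced proteins, 5 were higher at an unadjusted p under 0.05 in MI+T4 against MI (3.74% of all probes) and 3 passed as higher in MI+T4 against Sham (0.719% of all probes). Sp110, a nuclear body protein, had 12.03, 12.22, 12.05 and 11.86 in MI+T4 rats, against 11.68, 11.69, 11.91 and 11.94 in MI rats and 11.71, 11.52, 11.72 and 11.87 in Sham rats. Ifi35, which binds Nmi in a cytosolic complex, had 9.12, 9.31, 9.21 and 9.14 in MI+T4 rats, against 9.02, 8.92, 9.07 and 9.02 in MI rats and 8.97, 8.82, 9.02 and 9.02 in Sham rats. Ifi44, a GTP-binding protein, had 9.02, 9.28, 9.08 and 9.22 in MI+T4 rats, against 8.89, 8.76, 9.20 and 8.81 in MI rats and 8.95, 8.77, 8.87 and 8.73 in Sham rats. Only Ifi35 separated the MI+T4 rats from both other groups, while MI+T4 rat 8 lay just below Sham rat 4 for Sp110 and MI rat 7 lay among the MI+T4 rats for Ifi44. Against Sham, Sp110 rose by 0.33 (adjusted p = 0.00729), Ifi35 by 0.24 (adjusted p = 0.0198) and Ifi44 by 0.32 (adjusted p = 0.0311).

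Across MI+T4 against Sham, 9 of 42 members passed, all higher in MI+T4 (Sp110, Dhx58, Oasl2, Ifitm3, Ifi27, Ifi35, Ifi44, Ifi27l2b and Irf9), which is 21.4%, against 1.26% of all probes in either direction and 0.719% higher. The median difference was 0.15, and 9 members had all MI+T4 rats above all Sham rats (2.33% of all probes). Since the list was chosen with earlier results of these data known, these shares describe it and do not test it. In MI against Sham 1 of 42 passed (2.38%), against 3.61% of all probes in either direction and 1.89% higher, with 17 differences above 0, 25 below and a median of -0.024. That direction rested on single rats, since without MI rat 5 the counts were 29 above and 13 below with a median of 0.034, and the median was also above 0 without Sham rat 1 (0.01) or Sham rat 3 (0.024). The comparisons share their MI+T4, MI or Sham rats and are not independent of each other. An exact two-sided permutation test of 4 against 4 rats cannot fall below p = 0.0286, a value reached in 15 of 126 tests of members (3 comparisons), and 0.24 was the smallest p after adjustment over those 126. The limma fit used 1 correlation between the arrays of a rat for all probes, 0.243, whereas the median over the members was 0.714, so the standard errors and p-values of members can be too small. With the 2 arrays averaged to 1 value per rat, 0 of 42 members passed in any comparison, and 16 were higher in MI+T4 than in MI at an unadjusted p under 0.05 (3.0% of all probes).

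MI+T4 rat 6 was the highest of the 12 rats in 26 of 42 members (61.9%), against 7.84% of all probes. MI rat 5 was the lowest in 17 members (40.5%), against 14.1% of all probes, and of the 12 rats it also had the lowest cardiomyocyte markers (14.30) and the highest fibroblast markers (13.35). Sham rat 2 was the lowest in 11 (26.2%), against 8.81%. The order held in each technical replicate. MI+T4 rat 6 was highest in 27 members on the first technical replicate and 25 on the second, and MI rat 5 was lowest in 16 and 17. The median member minus its Sham mean was 0.08, 0.36, 0.11 and 0.10 in MI+T4 rats 5 to 8, and -0.12, -0.02, 0.13 and -0.02 in MI rats 5 to 8. MI+T4 rat 6 thus stood apart upward. The other 3 MI+T4 rats lay within the range of the MI rats by this median, below MI rat 7 (0.13) but above MI rats 5, 6 and 8. In Sham rats 1 to 4, which make up the reference mean, the median was 0.02, -0.12, 0.04 and 0.03. Every MI+T4 rat was above these Sham values.

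**Figure D3:**
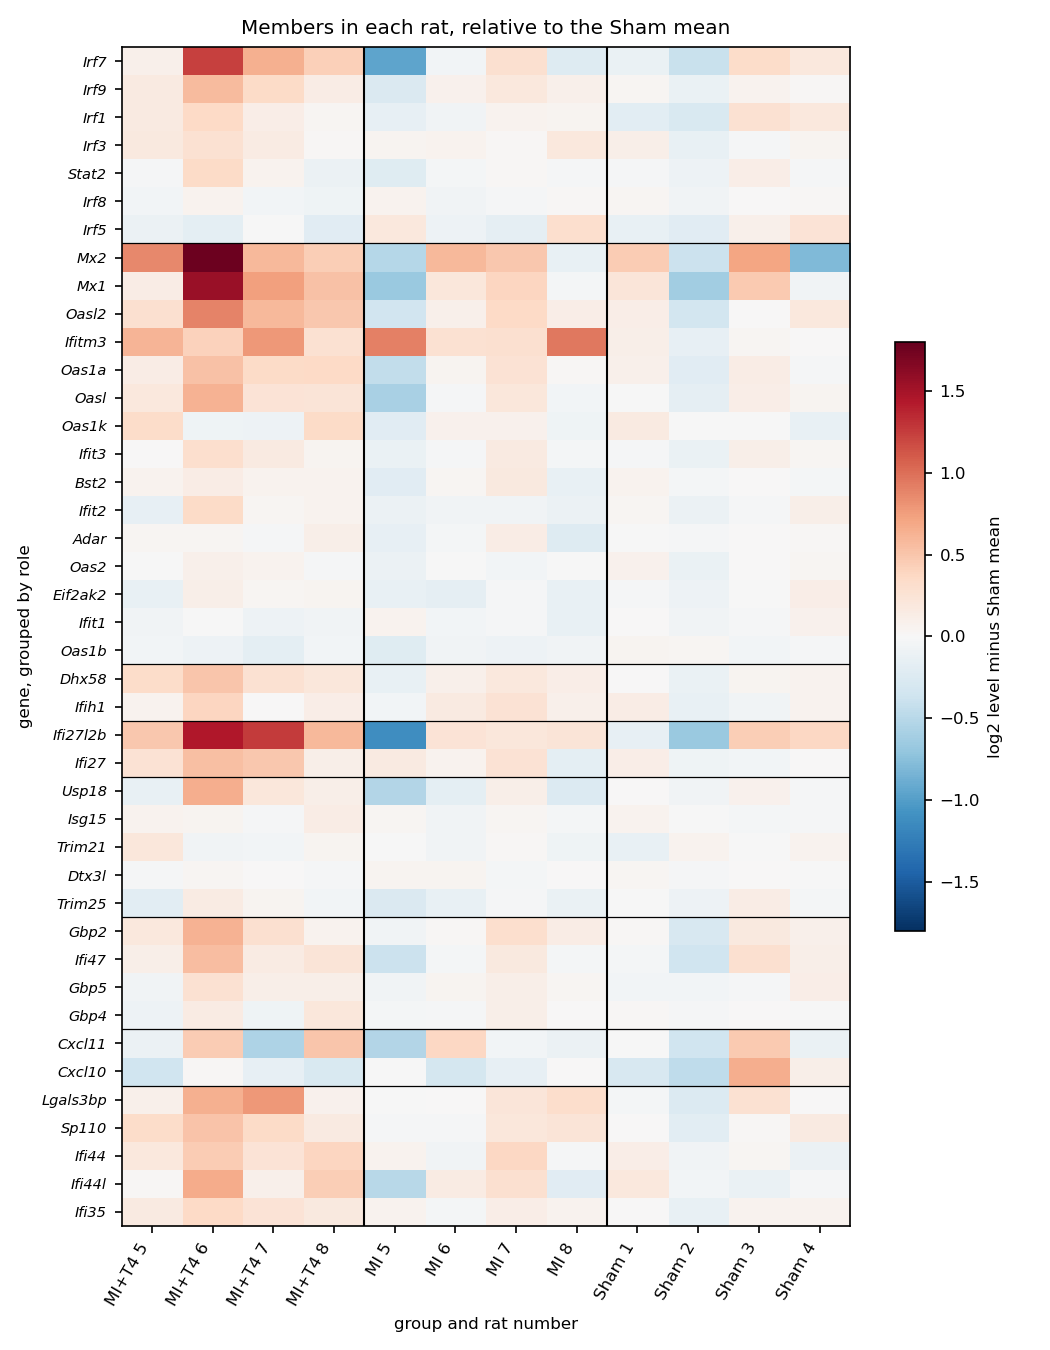
Level of each of the 42 members (rows, grouped by role) in each of the 12 rats (columns, MI+T4, MI and Sham from left to right) minus the mean of the Sham rats, in log2 units. The column of MI+T4 rat 6 is highest in 26 members, that of MI rat 5 is lowest in 17, and Ifitm3 is raised in MI rats 5 and 8.

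Leaving rats out moved the calls. In MI+T4 against Sham, 0 of the 9 members still passed without Sham rat 2 (adjusted p from 0.0511 to 0.195), 2 (Ifitm3 and Sp110) without MI+T4 rat 6, where the median difference of the 42 was 0.087 against 0.15 with all rats, and 3 without MI+T4 rat 7 (Dhx58, Oasl2 and Sp110). With MI rat 5 and MI+T4 rat 6 both left out, 6 of the 9 still passed, and Ifi27, Ifi35 and Ifi44 did not. Without MI rat 5, whose arrays enter this comparison only through the shared spread, 14 members passed in MI+T4 against Sham. Of all 22523 probes, 283 passed in MI+T4 against Sham with all rats and 150 without Sham rat 2. The count was 182 without MI+T4 rat 6, 97 without MI+T4 rat 7 and 370 without MI rat 5. With MI rat 5 and MI+T4 rat 6 both out it was 254. In MI+T4 against MI, 8 members passed without MI rat 7 and 3 without MI+T4 rat 5. Of all probes 76 and 14 passed in these fits, in that order. Of the members 0 passed without any of the other rats. With MI rat 5 and MI+T4 rat 6 out together, 0 passed and the median difference was 0.084, against 0.153 with all rats. Ifitm3 in MI against Sham passed in each of the 12 fits that left out 1 rat (adjusted p from 0.000404 to 0.0252). It did not pass in the limma fit of rat means (adjusted p = 0.222), nor with the arrays of either technical replicate alone.

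**Figure D4:**
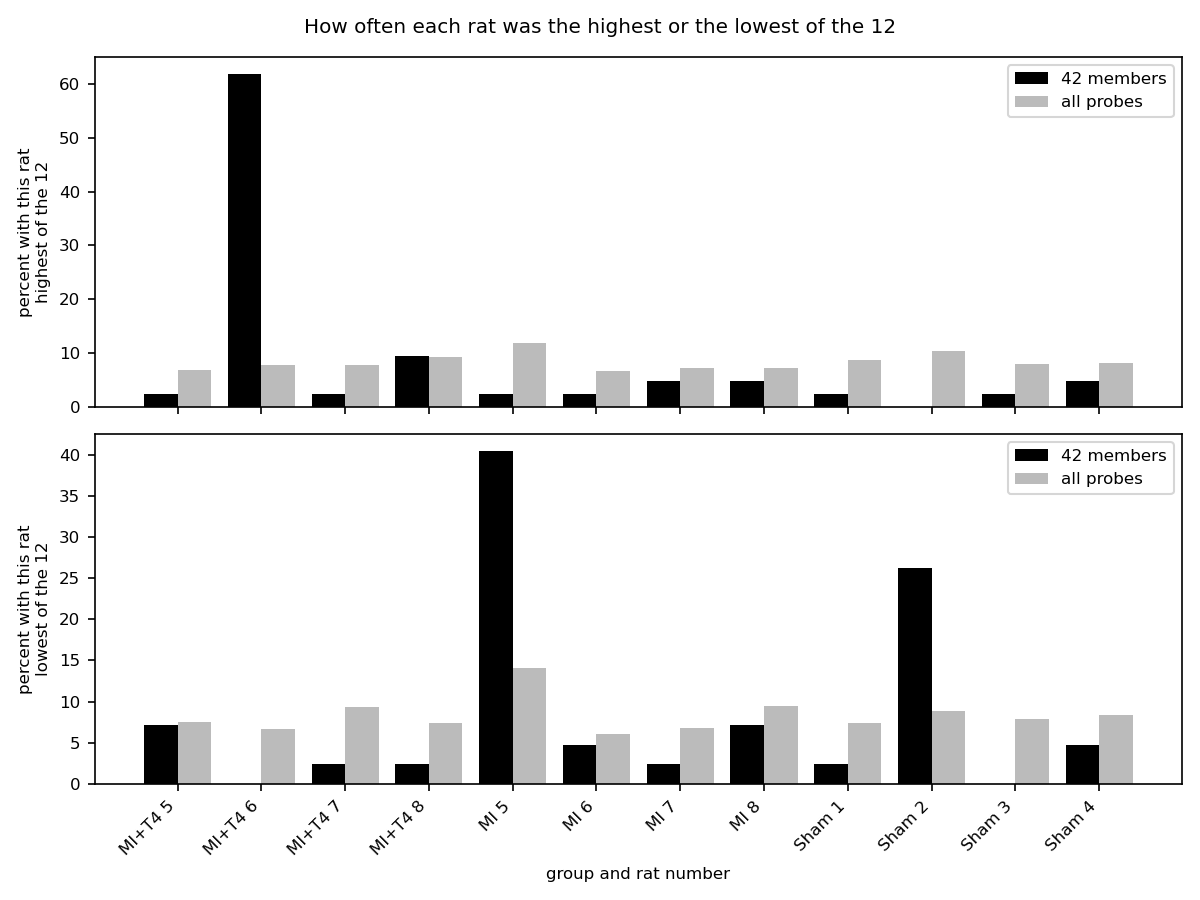
Percentage of the 42 members (black) and of all 22523 probes (gray) for which each rat was the highest (top) or the lowest (bottom) of the 12. MI+T4 rat 6 was highest for 61.9% of members against 7.84% of all probes, and MI rat 5 was lowest for 40.5% against 14.1%.

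Markers of leukocytes, in which these genes are strongly inducible, were set beside the members. The 5 pan-leukocyte markers averaged from 9.37 to 9.82 in MI+T4 rats, from 9.52 to 10.12 in MI rats and from 9.15 to 10.27 in Sham rats. In MI+T4 rat 6 they averaged 9.47 and in MI rat 5 9.93, both inside the Sham range. The 7 macrophage markers stood at 9.32 in MI+T4 rat 6 and 9.43 in MI rat 5, also inside the Sham range of 8.94 to 9.57. In MI rat 5 the NK cell markers (8.44, Sham up to 8.40) and B cell markers (7.61, Sham from 7.62) lay just outside the Sham range. Its T cell (8.04) and dendritic cell (9.19) markers lay inside. None of the 29 macrophage, T, B, NK, dendritic and pan-leukocyte markers passed in any comparison. In Sham rat 2, which was lowest for 11 members, the pan-leukocyte and macrophage markers were also the lowest of the 12 rats. Its atrial markers averaged 14.20, the highest of the Sham rats. The part of these markers in the members' levels was not tested.

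The wider pathway was read from 97 further genes, also chosen with earlier results of these data known, of which 61 had a probe. In MI+T4 against MI 0 of 61 passed, with 11 higher and 4 lower at an unadjusted p under 0.05, against 3.74% and 3.68% of all probes. All MI+T4 rats lay above all MI rats in 1 gene and below them in 2, against 1.63% and 1.36% of all probes. Of those 2, 1 was among the interferons and receptors and 1 in Jak and Stat signaling. Of the interferons, Ifna4, Ifnb1, Ifng and Ifnk had probes, all close to the array medians, with rat means between 7.53 and 8.03 and overlapping groups. Among the receptor chains, Ifngr1, which binds interferon gamma, rose in MI against Sham by 0.33 (adjusted p = 0.0343). It had 11.29, 11.02, 11.30 and 10.80 in MI+T4 rats, against 11.16, 11.21, 10.94 and 11.42 in MI rats and 11.00, 10.75, 10.87 and 10.79 in Sham rats, so that MI rat 7 overlapped with Sham. Il10rb, a chain shared by the receptors for interleukin 10 and interferon lambda, had a difference of -0.20 between MI+T4 and MI (adjusted p = 0.228). Of the 9 genes of Jak and Stat signaling 0 passed, and Ptpn2, a phosphatase that dephosphorylates Jak and Stat proteins, had the smallest p in MI+T4 against MI (-0.18, adjusted p = 0.492). Of the 10 sensors and adaptors 0 passed, and Tbk1, the kinase that activates Irf3, had a difference of 0.14 (adjusted p = 0.564).

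Of 33 further interferon-induced genes, 3 passed in MI+T4 against Sham, 2 higher and 1 lower (9.09%, against 1.26% of all probes). Ube2l6, the conjugating enzyme for Isg15, had 9.52, 9.92, 9.70 and 9.61 in MI+T4 rats, against 9.15, 9.37, 9.62 and 9.59 in MI rats and 9.24, 9.10, 9.25 and 9.32 in Sham rats. All MI+T4 rats were above all Sham rats, and Ube2l6 rose by 0.46 ± 0.0827 (SE, 1.38-fold, adjusted p = 0.00337). Tdrd7, a tudor-domain protein, rose by 0.17 in MI+T4 against Sham (adjusted p = 0.0384) and by 0.20 in MI against Sham (adjusted p = 0.00698). Nampt, the enzyme that recycles nicotinamide to NAD, fell by 0.32 in MI+T4 against Sham (adjusted p = 0.023). Trafd1, a brake on innate signaling, had 10.89, 10.91, 10.71 and 10.75 in MI+T4 rats, against 10.57, 10.57, 10.64 and 10.57 in MI rats and 10.70, 10.54, 10.58 and 10.70 in Sham rats. The MI+T4 rats were above all 8 others, with a difference from MI of 0.23 ± 0.0539 (SE, adjusted p = 0.136). Cmpk2, a mitochondrial nucleotide kinase, and Igtp, an immunity GTPase, had differences of 0.38 and 0.25 (adjusted p = 0.206 and 0.31).

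The response element was set beside the calls for the 32 measured members with a promoter window. Of the 20 members that hold it, 10 were higher in MI+T4 than in MI at an unadjusted p under 0.05 (3.74% of all probes). The median difference of the 20 was 0.13. Of the 12 that do not, 6 were higher, with a median of 0.16. Against Sham 5 of 20 and 2 of 12 passed as higher (0.719% of all probes). These shares were not tested.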

How the data were processed

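RNA of 12 rats was hybridized to 24 Illumina RatRef-12 arrays, 1 array per rat on each of 2 BeadChips. The deposited log2 values were made by the authors with a variance stabilizing transformation similar to log2 and robust spline normalization (versions not given in the sources used here), which narrows differences of dim probes. The 48 deposited columns of unnormalized signal and detection p are named by BeadChip position without a sample and were not used. Symbols came from the platform annotation. Of 22523 probes 13793 had 1 symbol, 0 had several and 8730 none.

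All 24 arrays were fitted in limma 3.58.1 (R 4.3.3) with 3 group means and the rat as block (duplicateCorrelation, statmod 1.5.0, common correlation 0.243), eBayes and Benjamini-Hochberg adjustment over all probes, called at 0.05. Members and lists were chosen with earlier results of these data known. Values of every rat are given for members called in a comparison and for the 6 with the smallest p in each. The labels number the rats as biological replicates. P-values of the fit over 24 arrays mix the spread between rats with that between the arrays of a rat. The common correlation lay below the member median of 0.714, so these p-values can be too small for members. Those from rat means measure the spread between rats. Only 4 rats per group limit the precision. Alternatives were rat means, each technical replicate alone, the nested F method, a trended and robust prior, a fit of only 2 groups, probes in the brighter part, a replicate block and leaving out each rat. Promoters came from RefSeq (GRCr8). Figures were drawn with matplotlib.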

Additional observations from a re-analysis of the deposited data

Results flagged for a closer look

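In 5 of 126 groups of 4 rats (42 members in 3 groups) the gap between the extreme rat and its neighbor exceeded the 95% critical share of the group's range by Dixon's rule, and chance flags about 1 in 20 groups. MI+T4 rat 6 was the high value for Oasl (9.25) and for Bst2 (8.53), a tether that holds virus particles on the cell surface. MI rat 5 was the low value for Oas1b (7.42) and for Ifi27l2b (11.43). Sham rat 4 was the high value for Gbp5 (8.21), a GTPase that promotes inflammasome assembly. No cause was tested for these values.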

How the results depend on the processing

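Of 488 single-gene alternatives, 398 kept their direction and side of the threshold, 71 lost the threshold, 19 gained it and 0 changed sign. Only results that passed with all arrays, 1 in MI against Sham and 9 in MI+T4 against Sham, could lose it. The others could only gain it, so the 398 do not measure how stable the calls were. Averaging each rat's arrays left 0 members and 0 probes called in MI against Sham and 0 members and 1 probe in MI+T4 against Sham. With technical replicate 1 alone the counts were 0 members and 0 probes in MI against Sham, and 0 and 1 in MI+T4 against Sham. With technical replicate 2 alone they were 0 members and 3 probes, and 0 and 1. With all arrays 814 probes were called in MI against Sham and 283 in MI+T4 against Sham. The nested F method called 9 members and 94 probes in MI+T4 against MI and 494 probes in MI against Sham. With only the 2 groups in the fit 1 probe was called in MI+T4 against MI and 440 in MI+T4 against Sham, with a trended and robust prior 1 in MI+T4 against MI, and among the brighter probes 173 in MI+T4 against Sham.

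Leaving out 1 rat gave 0 to 8 members and 0 to 76 probes called in MI+T4 against MI, 193 to 1574 probes in MI against Sham, and 0 to 14 members and 97 to 585 probes in MI+T4 against Sham. The 14 came without MI rat 5. Leaving out MI rat 5 and MI+T4 rat 6 together, chosen after seeing the data, left 233 probes called in MI against Sham. The numbers 5 to 8 of MI and MI+T4 rats were not taken as pairs, since the groups hold different animals. Deviations of same-numbered rats from their group means correlated at 0.111, 0.254, -0.534 and -0.484. These values are mixed in sign and cannot decide whether same-numbered rats share a factor. A fit with the number as a replicate block called 8 members and 37 probes in MI+T4 against MI. The cause of these shifts was not tested. The 6 dim members allow no statement on a change.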
